A study of Homo sapiens with 12 samples.

Results

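Genes for 10 secreted or surface proteins of epithelial defence (LCN2, SLPI, PI3, PIGR, MUC1, OLFM4, WFDC2, SAA1, SAA2 and AGR2) were followed in MCF10A cells, an immortalised, non-transformed line of human mammary epithelium. The genes were chosen by symbol among the 60483 gene rows of each deposited table. The cells had been transduced with a tet-inducible TAZ-4SA, a constitutively active form of TAZ, which is a transcriptional co-activator restrained by the Hippo pathway. Messenger RNA was sequenced in 12 libraries, 3 each from cells without doxycycline (No Dox) and from cells kept for 24, 48 or 72 h in 0.05 µg/mL doxycycline (Dox). All groups carried the transgene and grew in the same medium with horse serum, EGF, hydrocortisone, cholera toxin and insulin. No group of Dox-treated cells lacking TAZ-4SA and no No Dox group at the later times was analysed here. The transgene, the drug and the hours in culture therefore cannot be told apart. Whether the 3 replicates of a group were grown separately is not stated, and the p-values may therefore reflect technical spread only.

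Mucosal and glandular epithelia guard their surface with secreted proteins of several kinds. Lipocalin-2 (LCN2) keeps iron from bacteria by binding their siderophores, whereas SLPI and elafin (PI3) inhibit neutrophil elastase through WAP domains, a fold that WFDC2 shares. Serum amyloid A proteins (SAA1 and SAA2) are acute-phase apolipoproteins induced by interleukins through NF-kB, C/EBP and STAT factors. MUC1 is a membrane-tethered mucin whose outer part can be shed, PIGR carries polymeric IgA across the epithelium, AGR2 is a disulfide isomerase relative needed for mucin folding, and OLFM4 is a glycoprotein known from intestinal crypts and neutrophils.

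The libraries held 15382564 to 26570132 expected counts. Levels are given as CPM, the counts scaled to a common TMM-normalised library size, with mean ± SD and n = 3 per group. WWTR1, the gene of TAZ, was at 71.7 ± 2.88 CPM in No Dox and at 887 ± 68.1, 844 ± 73.6 and 994 ± 59.3 CPM at 24, 48 and 72 h. On the per-length TPM scale it was at 26.6 in No Dox and 1000 at 24 h, as its effective length was 3230 and 1090 bases. Reads of the transgene and of the cells' own WWTR1 were not told apart in these counts. All 10 mammary epithelial markers examined, including EPCAM and CDH1, were at 1 CPM or more in every group. Some basal markers among them were lower at 72 h than in No Dox. TP63 was at 77.4 CPM in No Dox and 1.49 at 72 h, KRT17 at 2370 and 600, and ITGB4 at 1520 and 511. KRT14 and ITGA6 were near their No Dox levels at 72 h (ITGA6 313 and 308 CPM). KRT14 was above No Dox at 24 h, at 21.2 CPM, and was at 10.2 CPM at 72 h. The luminal keratins KRT8 (211 and 2230 CPM) and KRT18 (368 and 1920) were higher at 72 h. The part of these changes in the results below was not tested. Marker lists of lymphocytes, hepatocytes, goblet and club cells, neutrophils and milk-secreting cells summed to at most 2.66 CPM in any library, and the casein genes CSN1S1, CSN2 and CSN3 were at 0 in all groups. The 8 macrophage markers summed to 8.5 to 12.3 CPM, with C1QA, C1QB and TYROBP at 0 in all groups. In bulk RNA, fewer cells expressing a gene and less of its RNA per cell cannot be told apart.

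Of the 10 genes, 8 had enough counts to be tested. A gene was called where it passed an adjusted p of 0.05 (edgeR quasi-likelihood, Benjamini-Hochberg over 14822 genes) with a log2 fold change of 1 or more in size. At 24 h, 6 genes fell, namely LCN2, SAA2, MUC1, SAA1, OLFM4 and AGR2, while 17.7% of all tested genes were called lower. None of the 8 was called higher, as 1773 of all 14822 tested genes were. OLFM4 and AGR2 passed the filter on low counts only through their No Dox libraries, so their calls follow in part from the filter. At 48 h, 6 genes were lower, SLPI having joined and SAA1 having left, beside 14.4% of all tested genes. At 72 h, 4 remained lower (LCN2, SLPI, OLFM4 and AGR2), beside 12.3% of all tested genes. Between 24 and 72 h, 4 genes rose (SAA1, SAA2, MUC1 and LCN2), beside 8.28% of all tested genes, and none was called lower, which 3.99% of all tested genes were. PI3 was never called. The plot of CPM in each library shows these courses.

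**Figure D1:**
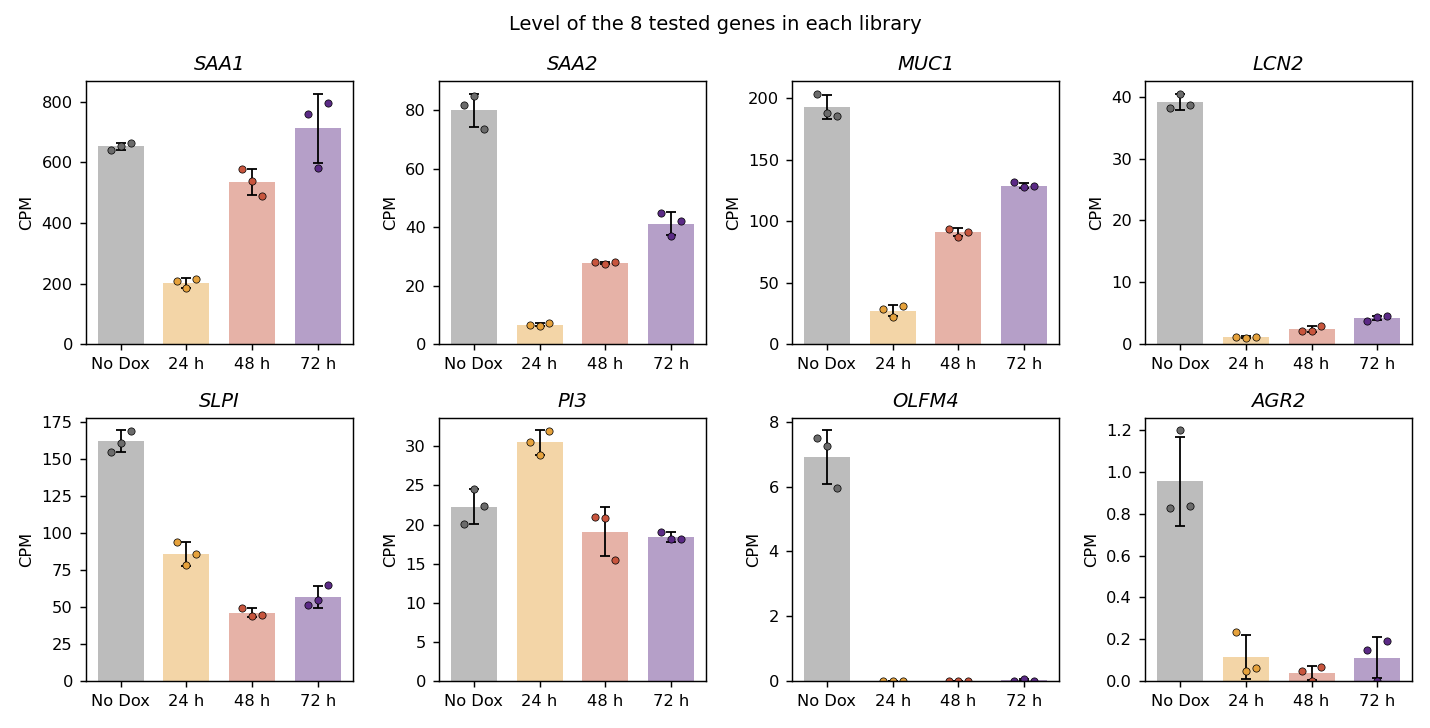
CPM of the 8 tested genes in each library (points), with the mean (bars) and SD (lines) of 3 libraries per group, in No Dox and after 24, 48 and 72 h in Dox. SAA1, SAA2, MUC1 and LCN2 were lowest at 24 h and higher again at 72 h, SLPI was lowest at 48 h, and OLFM4 had no count at 24 or 48 h.

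The serum amyloid pair was examined first, since SAA1 was the most abundant of the 10 genes. On the per-length TPM scale SAA1 was at 2220 ± 61.5 TPM in No Dox, rank 83 among 19598 protein-coding genes, and SAA2 was at 264 ± 12.8 TPM. SAA1 (ENSG00000173432) lies on chromosome 11 at 18266260 to 18269977, plus strand, and SAA2 (ENSG00000134339) at 18239223 to 18248668, minus strand (GRCh38). Their coding sequences have 366 bases, of which 11 differ, leaving 97% identical and a longest identical run of 186 bases. The stretch below, coding bases 204 to 323, holds 10 of these differences in capitals and spans 2 exons. It shows the bases by which reads can be told apart between the genes (SAA1 chr11:18269307-18269809, plus strand; SAA2 chr11:18245423-18245936, minus strand; GRCh38, GENCODE transcripts).
SAA1: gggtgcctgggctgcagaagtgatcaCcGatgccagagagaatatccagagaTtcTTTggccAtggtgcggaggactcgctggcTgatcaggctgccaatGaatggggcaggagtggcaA
SAA2: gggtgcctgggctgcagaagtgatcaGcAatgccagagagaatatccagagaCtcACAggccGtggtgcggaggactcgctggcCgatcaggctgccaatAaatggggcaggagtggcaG
The posterior SD that RSEM gives for shared reads was 0.0156 to 0.0394% of the SAA1 count and 0.231 to 1.24% of the SAA2 count, so both rows are given separately and as a sum.

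SAA1 fell at 24 h and then returned to its starting level. The No Dox libraries held 641, 654 and 663 CPM, and the 24 h libraries held 209, 184 and 216 CPM. All 24 h libraries lay below all No Dox libraries (log2 fold change -1.69, SE 0.09, adjusted p = 2.45e-13). At 48 h SAA1 was at 577, 540 and 489 CPM, still below No Dox in each library, although the log2 fold change of -0.29 (adjusted p = 0.00506) was under the fold threshold. At 72 h it was at 760, 580 and 795 CPM, a range that overlapped No Dox (log2 fold change 0.13, adjusted p = 0.194). From 24 to 72 h SAA1 rose by 1.81 on the log2 scale (SE 0.09, adjusted p = 4.83e-13). Its rank by TPM among protein-coding genes went from 83 in No Dox to 179, 88 and 60 at 24, 48 and 72 h.

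SAA2 fell more deeply and regained less. It was at 81.9, 84.8 and 73.8 CPM in No Dox and at 6.64, 6.22 and 7.32 CPM at 24 h, which was 8.4% of the No Dox mean (log2 fold change -3.58, SE 0.09, adjusted p = 8.94e-19). The 48 h libraries held 28.0, 27.4 and 28.0 CPM (log2 fold change against No Dox -1.53, adjusted p = 7.85e-14). At 72 h the values of 44.9, 36.9 and 42.1 CPM were 51.5% of No Dox, with no overlap between the groups. The log2 fold change at 72 h, -0.95 (adjusted p = 1.3e-10), was just short of the fold threshold. It passed with effective lengths in the fit (-1.07 in edgeR, -1.08 in DESeq2), without No Dox replicate 3 (-1.0) and without 72 h replicate 1 (-1.01). From 24 to 72 h SAA2 rose by 2.63 on the log2 scale (SE 0.09, adjusted p = 3.08e-15).

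SAA2 was a smaller share of the pair at every time in Dox. Per 100 SAA1 counts there were 12.8, 13.0 and 11.1 SAA2 counts in the No Dox libraries and 3.18, 3.37 and 3.39 at 24 h. The ratio was 5.22 ± 0.452 at 48 h and 5.85 ± 0.537 at 72 h, against 12.3 ± 1.04 in No Dox. None of the Dox libraries overlapped the No Dox range (exact two-sided permutation test, p = 0.1 at each time, the smallest that 3 against 3 can give). Summed, the pair was at 733 ± 8.72 CPM in No Dox, 210 ± 17.4 at 24 h, 563 ± 44.1 at 48 h and 753 ± 119 at 72 h. The sum rose by 1.85 on the log2 scale from 24 to 72 h and differed from No Dox by 0.04 at 72 h (adjusted p = 0.684). The effective length that RSEM gave SAA2 was 362 ± 14 bases in No Dox and 315 ± 4.6 at 24 h (ratio 0.873, exact permutation p = 0.1), while that of SAA1 was 350 ± 7.4 and 347 ± 4.9. On TPM, which takes length into account, SAA2 at 24 h was 9.88% of No Dox.

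**Figure D2:**
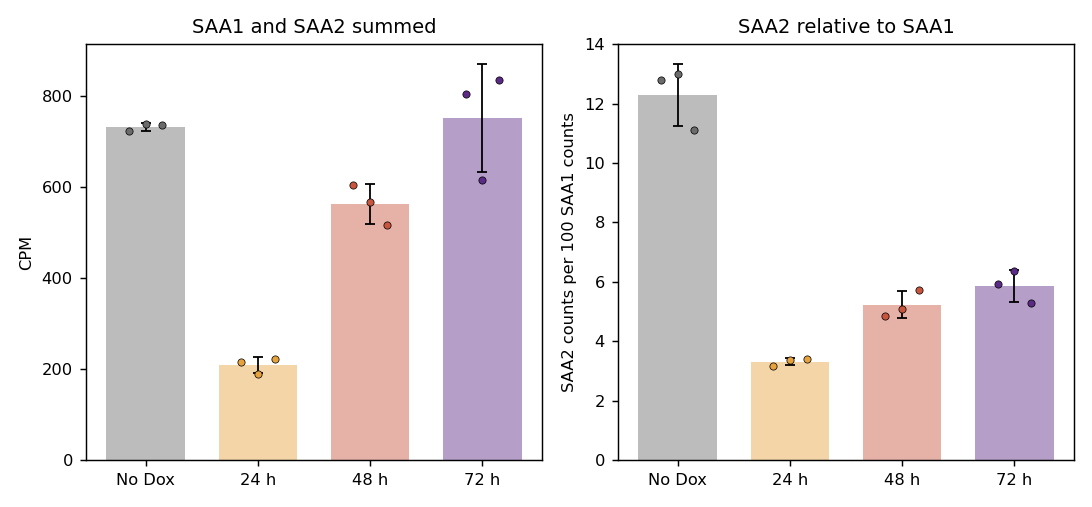
Summed CPM of SAA1 and SAA2 (left) and SAA2 counts per 100 SAA1 counts (right) in each library (points), with the mean (bars) and SD (lines) of 3 libraries per group. The sum at 72 h, 753 CPM, was near the 733 CPM of No Dox, while the ratio at 72 h was 5.85 against 12.3.

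The adjoining SAA4, a constitutive serum amyloid, and the readthrough gene SAA2-SAA4 had few counts. SAA4 had 50 counts over the 3 No Dox libraries, 0 at 24 h, 2 at 48 h and 46 at 72 h. SAA2-SAA4 overlaps SAA2, so their reads cannot be fully told apart, and its counts were 169, 3, 11 and 47. SAA4 at 24 and 48 h was under 3 counts over the group and SAA2-SAA4 at 24 h was at 3, so these low values cannot be ranked.

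MUC1 (ENSG00000185499, chromosome 1, 155185824 to 155192916, minus strand) took a similar course from a high level. It was at 204, 188 and 186 CPM in No Dox and at 28.9, 22.1 and 31.0 CPM at 24 h, 14.2% of the No Dox mean (log2 fold change -2.82, SE 0.08, adjusted p = 9.28e-18). At 48 h the libraries held 94.1, 87.6 and 91.7 CPM, and at 72 h 132, 128 and 129 CPM. MUC1 in each 72 h library was above each 48 h library and below each No Dox library. The log2 fold change against No Dox was -1.08 at 48 h (adjusted p = 2.22e-11) and -0.58 at 72 h (adjusted p = 3.92e-07), the latter under the fold threshold. The 48 h call was lost when the fold threshold itself was tested (glmTreat, adjusted p = 0.239) and in limma on log2(TPM + 0.5), with and without a filter, and on log2(TPM + 0.1), which each gave -0.93. From 24 to 72 h MUC1 rose by 2.25 (SE 0.08, adjusted p = 4.77e-15).

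LCN2 (ENSG00000148346, chromosome 9, 128149071 to 128153453, plus strand) fell furthest among the genes that kept counts in every library. It was at 38.1, 40.5 and 38.6 CPM in No Dox and at 1.22, 0.931 and 1.21 CPM at 24 h, which was 2.87% of the No Dox mean (log2 fold change -5.12, SE 0.14, adjusted p = 2.43e-18). The 24 h value rests on 65 counts over 3 libraries, against 2251 in No Dox. LCN2 was then at 2.09, 2.18 and 2.98 CPM at 48 h and at 3.81, 4.38 and 4.54 CPM at 72 h, with no overlap between any of the 4 groups. The rise from 24 to 72 h was 1.93 on the log2 scale (SE 0.18, adjusted p = 8.75e-09). The step from 24 to 48 h, 1.08 (adjusted p = 0.000218), dropped under the fold threshold without 24 h replicate 2 (0.96) and without 48 h replicate 3 (0.93), and did not pass a test of the threshold itself (glmTreat, adjusted p = 1.0). Despite the rise, LCN2 at 72 h was 10.9% of No Dox (log2 fold change -3.2, adjusted p = 1.89e-16).

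**Figure D3:**
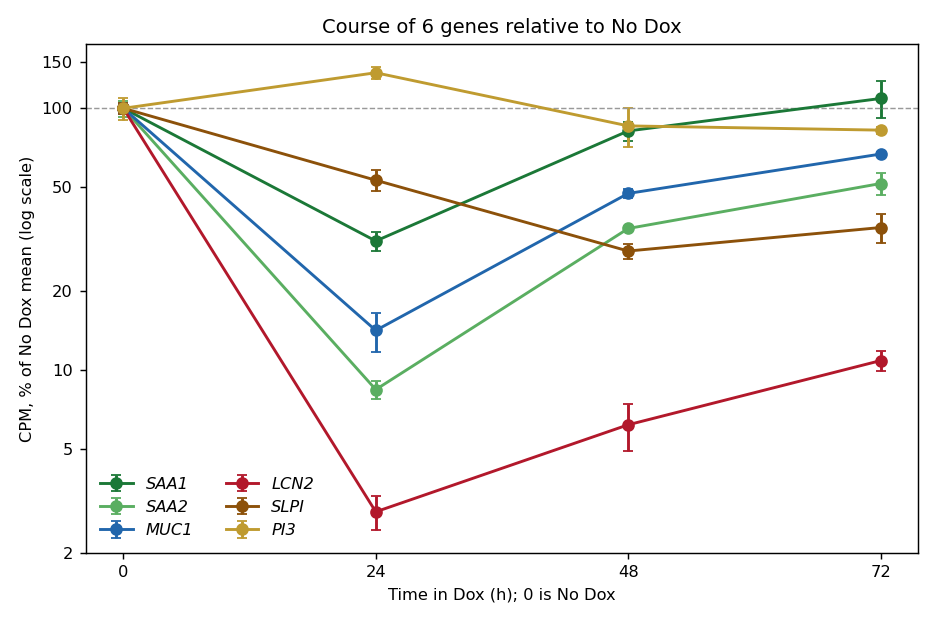
CPM as a percent of the No Dox mean, on a log axis, against hours in Dox, for 6 genes (points are means and lines SDs of 3 libraries). At 24 h the values ran from 2.87% for LCN2 to 137% for PI3, and at 72 h from 10.9% for LCN2 to 109% for SAA1.

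SAA1, SAA2, MUC1 and LCN2 were thus called lower at 24 h and called higher at 72 h than at 24 h, as were 5.09% of all tested genes. SAA1, SAA2 and MUC1 were in addition no longer called at 72 h against No Dox, as were 3.43% of all tested genes. Both comparisons share the 24 h libraries. All of these genes were called higher at 48 h than at 24 h (3.08% of all tested genes were), by 2.05 for SAA2, 1.74 for MUC1, 1.4 for SAA1 and 1.08 for LCN2. Between 48 and 72 h none of the 10 genes was called in edgeR or DESeq2, beside 3.24% of all tested genes called in either direction by edgeR. In that step 5 genes had both an unadjusted and an adjusted p under 0.05 and were under the fold threshold, with log2 fold changes of 0.84 for LCN2, 0.57 for SAA2, 0.51 for MUC1, 0.41 for SAA1 and 0.3 for SLPI.

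**Figure D4:**
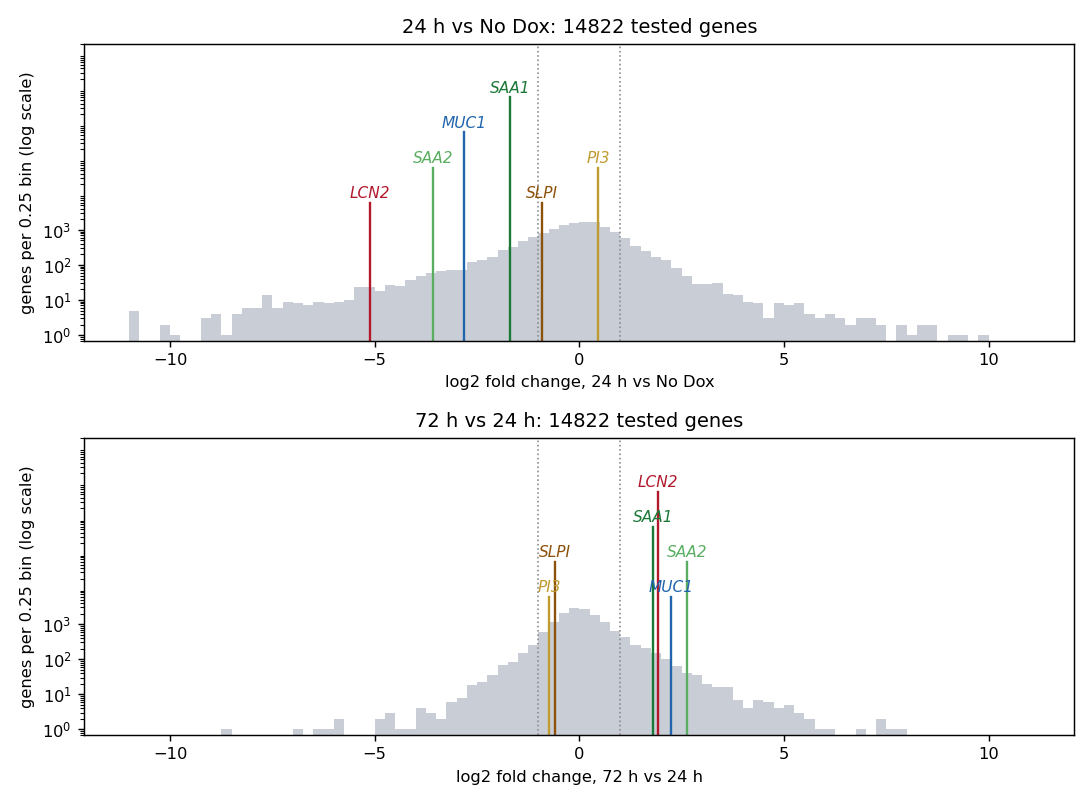
Distribution of log2 fold changes of 14822 tested genes in bins of 0.25 (grey, log axis of gene numbers) at 24 h against No Dox (top) and at 72 h against 24 h (bottom). Coloured lines mark 6 genes, their heights carry no value, dotted lines mark a log2 fold change of -1 and 1, and values beyond the axis stand in the end bins; LCN2 lay at -5.12 in the upper panel and at 1.93 in the lower.

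The genes of the elastase inhibitors SLPI and PI3 lie 75.7 kb apart on chromosome 20, and SLPI was called lower at 48 and 72 h while PI3 was never called. SLPI (ENSG00000124107, 45252239 to 45254564, minus strand) was at 155, 161 and 169 CPM in No Dox and at 94.1, 78.1 and 85.7 CPM at 24 h. This difference, -0.91 on the log2 scale (SE 0.08, adjusted p = 8.37e-10), was just short of the fold threshold. SLPI then reached 49.6, 43.9 and 44.7 CPM at 48 h, 28.5% of No Dox (log2 fold change -1.81, SE 0.08, adjusted p = 2.18e-14). At 72 h it was at 51.0, 54.4 and 64.8 CPM, 35.1% of No Dox (log2 fold change -1.51, adjusted p = 4.02e-13). Its lowest libraries were thus those of 48 h, a day later than for SAA1, SAA2, MUC1 and LCN2.

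PI3 (ENSG00000124102, 45174902 to 45176544, plus strand) was at 20.1, 24.5 and 22.4 CPM in No Dox. At 24 h it was at 30.6, 28.9 and 32.0 CPM, above every No Dox library, with a log2 fold change of 0.46 (SE 0.1, adjusted p = 0.000232) that was under the fold threshold. The 48 h libraries held 21.0, 20.8 and 15.4 CPM and overlapped No Dox (log2 fold change -0.21, adjusted p = 0.0707). At 72 h the values of 19.1, 18.1 and 18.1 CPM lay below every No Dox library (log2 fold change -0.27, adjusted p = 0.0212). Relative to SLPI there were 13.0, 15.2 and 13.2 PI3 counts per 100 SLPI counts in No Dox and 32.6, 37.0 and 37.3 at 24 h. The ratio was 41.4 ± 6.54 at 48 h and 32.9 ± 4.81 at 72 h, above every No Dox library (exact two-sided permutation test, p = 0.1 at each time, the smallest possible). WFDC2 (ENSG00000101443), another WAP gene on chromosome 20, had 3 counts over the No Dox libraries, 1 at 24 h and 0 at 48 and 72 h. It was not tested, and no change was detectable at this depth. Of 19 further WAP-domain and seminal cluster genes, only ANOS1 had enough counts, at 0.142 ± 0.0456 CPM in No Dox and 1.32 ± 0.0434 at 24 h. ANOS1 passed the filter on low counts only through its Dox libraries, so its higher level in Dox follows in part from the filter.

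OLFM4 and AGR2 were low in No Dox and nearly without counts in Dox. OLFM4 (ENSG00000102837, chromosome 13, 53028813 to 53052057, plus strand) was at 7.51, 7.26 and 5.96 CPM in No Dox, 399 counts in all. It had 0 counts at 24 h and at 48 h, which made it at least 134-fold and at least 135-fold lower, a bound set at 3 counts over the group. At 72 h there was 1 count, in replicate 2, which is also under 3 counts. The ratio of No Dox to 72 h was 432 on that count, with a 95% exact binomial interval of 77.1 to 17100, and 309 as fitted. Its size is therefore not settled. AGR2 (ENSG00000106541, chromosome 7, 16791811 to 16833433, minus strand) had 54 counts in No Dox (0.829, 1.2 and 0.838 CPM) and 7, 2 and 8 counts at 24, 48 and 72 h. The ratio of No Dox to Dox was 7.78 (3.53 to 20.3) at 24 h, 27.3 (7.21 to 231) at 48 h and 7.31 (3.46 to 17.8) at 72 h. Bounds and intervals cover counting error only. The AGR2 log2 fold change at 24 h was -2.92 as fitted and -3.96 without 24 h replicate 1. With effective lengths in the fit it was -1.7 in edgeR (adjusted p = 0.0599) and -1.81 in DESeq2 (adjusted p = 0.109), which ended the call, the effective length being 803 ± 340 bases in No Dox and 304 ± 4.9 at 24 h. On TPM, AGR2 at 24 h was 28.1% of No Dox. With LCN2, these were the genes called lower at all 3 times, as were 8.97% of all tested genes.

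PIGR (ENSG00000162896) had 2 counts over the No Dox libraries, 0 at 24 h, 0 at 48 h and 2 at 72 h, so that its level was at or under 3 counts per group throughout. Neither PIGR nor JCHAIN, the gene of the IgA joining chain, which was at 0 at 24, 48 and 72 h, gave a measurable course.

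Promoter windows were read for the 6 genes listed in the RefSeq table (GRCh38.p14), namely LCN2, PIGR, MUC1, OLFM4, WFDC2 and AGR2. Shown are the 250 bases before the start of LCN2, which fell furthest among genes with counts in every library, and of MUC1, which was back at 67.1% of No Dox at 72 h, with matches to the motifs searched on both strands in capitals. LCN2 is chr9:128149203-128149452, plus strand, and MUC1 is chr1:155192916-155193165, minus strand. The start is that of RefSeq, whereas the gene spans given above are those of GENCODE. For LCN2 and AGR2 the window lies inside that span.
LCN2: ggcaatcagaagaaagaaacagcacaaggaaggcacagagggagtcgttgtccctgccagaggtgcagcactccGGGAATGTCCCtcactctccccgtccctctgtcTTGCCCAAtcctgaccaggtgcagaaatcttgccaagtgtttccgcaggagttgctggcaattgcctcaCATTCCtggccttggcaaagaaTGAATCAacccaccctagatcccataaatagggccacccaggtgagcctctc
MUC1: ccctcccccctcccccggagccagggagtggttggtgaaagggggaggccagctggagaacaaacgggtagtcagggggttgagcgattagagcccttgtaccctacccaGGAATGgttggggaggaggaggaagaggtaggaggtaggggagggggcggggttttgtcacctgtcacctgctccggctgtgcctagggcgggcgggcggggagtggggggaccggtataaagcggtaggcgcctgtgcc
The motifs were the TEAD site GGAATG, the AP-1 site TGANTCA, the C/EBP site TTNNGNAA, the STAT site TTCNNNGAA and the kB consensus. The LCN2 window held the letters of the TEAD site at 175 and, on the other strand, at 74 bases before the start, an AP-1 match TGAATCA at 52, and a C/EBP match at 143. The TEAD match at 175 overlaps a match to the kB consensus and matches to the kB form, the first from 176, so that the same bases carry several matches. The MUC1 window held a TEAD match at 140. Of 35116 promoter windows, read over the 250 bases before the start, 11.9% held a TEAD match, 6.57% an AP-1 match and 33.2% a C/EBP match. A kB consensus match was held by 5.21% and a kB form match by 4.31%. OLFM4 had an AP-1 match TGACTCA at 137, WFDC2 a C/EBP match at 138 and AGR2 4 C/EBP matches, while PIGR had none of these letters. A match is a description of the letters and not a bound site.

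Genes known to act upstream of these proteins were followed next. Of 30 listed cytokine, NF-kB, C/EBP and STAT genes 27 were tested, and 15, 10 and 10 were called lower at 24, 48 and 72 h, with none called higher (17.7, 14.4 and 12.3% of all tested genes were lower at these times). Their median log2 fold change at 24 h was -1.13, against -0.03 over all tested genes. NFKBIZ, which encodes an NF-kB cofactor required for LCN2 induction by interleukins, was at 66.5 ± 1.78 CPM in No Dox and 14.5 ± 2.01, 9.79 ± 0.526 and 8.06 ± 0.88 CPM in Dox. RELB, an NF-kB subunit, was at 33.4 ± 1.68 CPM and then 13.5 ± 1.93, 5.2 ± 0.414 and 3.96 ± 0.226. TNFAIP3, an NF-kB feedback inhibitor, went from 67.9 ± 1.76 to 28.7 ± 1.81, 8.47 ± 0.597 and 7.34 ± 0.809 CPM. IL6R, a receptor chain for interleukin-6, went from 128 ± 0.987 to 8.26 ± 0.141, 5.46 ± 0.448 and 2.92 ± 0.622 CPM. From 24 to 72 h TNFAIP3, RELB and IL6R were called lower again, with log2 fold changes of -1.98, -1.77 and -1.52. Of the 27 tested genes, 2 were called higher over these hours and 22 were not called. Their median was 0.2, against 0.01 over all tested genes, of which 3.99% were called lower and 8.28% higher.

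Among 18 factors of secretory epithelia 12 were tested, and 6 were called lower and 1 higher at 24 h, with a median of -1.16. Of all tested genes, 17.7% were lower and 12% higher at that time. ELF3, an epithelial ETS factor, was at 101 ± 4.53 CPM in No Dox, 1.39 ± 0.232 at 24 h, 8.64 ± 1.67 at 48 h and 11.1 ± 0.444 at 72 h. It rose by 3.0 on the log2 scale from 24 to 72 h (adjusted p = 1.24e-12). GRHL3, a grainyhead factor of epithelial barriers, was at 12.8 ± 1.9 CPM in No Dox, 1.4 ± 0.323 at 24 h and 10.0 ± 1.72 at 72 h, a rise of 2.86 (adjusted p = 8.9e-11). EHF, another epithelial ETS factor, was at 34.7 ± 2.57 CPM and then 0.907 ± 0.172, 1.55 ± 0.559 and 1.4 ± 0.179. HES1, a Notch target, was at 18.7 ± 1.12 CPM and then 2.28 ± 0.757, 3.13 ± 0.322 and 3.27 ± 0.181. ELF3, GRHL3, EHF and HES1 were named for the size of their change, and each had its lowest mean at 24 h. EHF and HES1 were not called at 72 h against 24 h (log2 fold changes of 0.66 and 0.5). The share of all tested genes with their lowest mean at 24 h was not counted. Of the 12 tested factors, 3 were called higher and 1 lower at 72 h than at 24 h, and 8 were not called. Over all tested genes, 8.28% were called higher and 3.99% lower in that comparison.

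**Figure D5:**
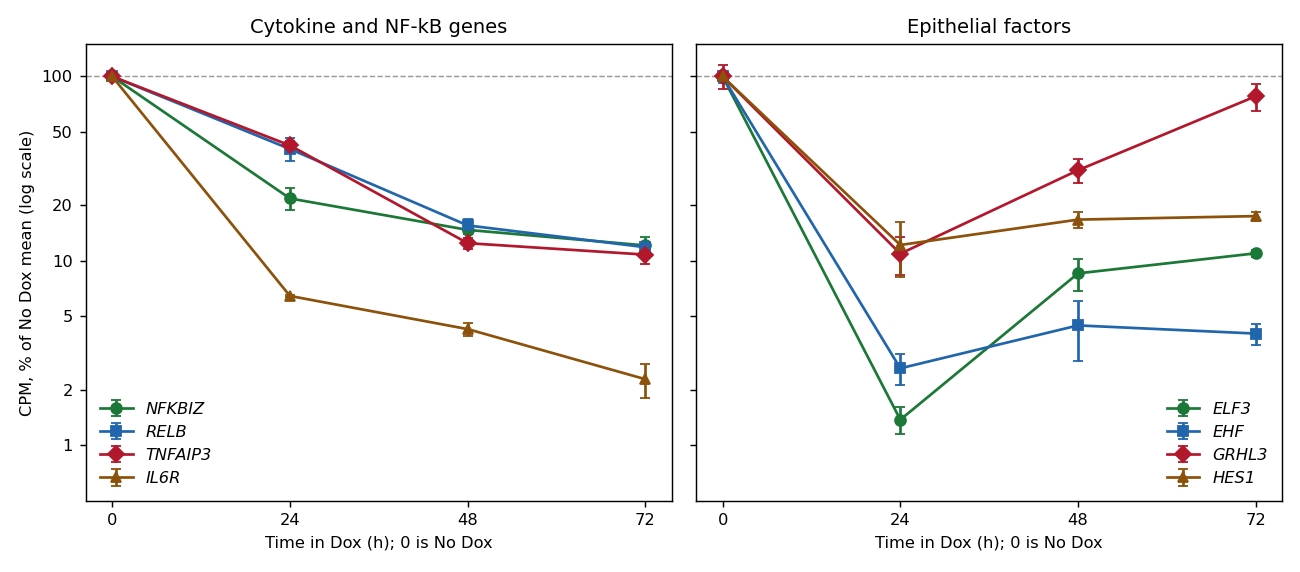
CPM as a percent of the No Dox mean, on a log axis, against hours in Dox, for 4 cytokine and NF-kB genes (left) and 4 epithelial factors (right); points are means and lines SDs of 3 libraries. TNFAIP3 went from 67.9 CPM in No Dox to 28.7 at 24 h and 7.34 at 72 h, while GRHL3 went from 12.8 to 1.4 and back to 10.0.

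Other secreted defence genes moved in both directions. Of 16 acute-phase genes 7 were tested, and at 24 h 6 were lower and 1 was higher (median log2 fold change -4.87, with 17.7% and 12% of all tested genes lower and higher). Among the 6 is SAA4 of the serum amyloid locus above, at 0.827 CPM in No Dox and 0 at 24 h. SAA4 passed the filter on low counts only through groups where it was high, so the count and the median follow in part from the filter. SERPINA3, an acute-phase protease inhibitor, fell from 185 ± 6.16 to 6.36 ± 0.579 CPM at 24 h and stood at 18.4 ± 1.59 at 72 h. SERPINA1, the main plasma inhibitor of elastase, was at 94.8 CPM in No Dox and 24.7 at 24 h, and CD14, a co-receptor for bacterial lipopolysaccharide, at 21.1 and 2.07. The gene that rose was PTX3, a pentraxin, from 2.51 ± 0.239 to 109 ± 6.04 CPM, falling back to 19.1 ± 1.57 at 72 h. Its course was thus opposite in direction to that of SAA1.

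Of 23 mucin and mucus genes beside MUC1, 4 were tested and all 4 were lower at 24 h (median -2.67, with 17.7% of all tested genes lower). MUC2, which is among them, was at 0.988 CPM in No Dox and 0.0202 at 24 h. It passed the filter on low counts only through its No Dox libraries, so the count of lower genes follows in part from the filter. CLCA2, a regulator of chloride conductance, went from 54.3 ± 0.479 to 5.53 ± 0.395 CPM at 24 h and 1.51 ± 0.427 at 72 h, and was lowest at 72 h. Of 19 other antimicrobial genes 6 were tested, with 3 lower and 1 higher at 24 h (median -1.0, with 17.7% and 12% of all tested genes lower and higher). DMBT1, a scavenger-receptor protein of mucosal fluids, rose from 0.9 ± 0.182 to 11.8 ± 1.12 CPM at 24 h and 20.2 ± 0.67 at 72 h, and CCL20, an antimicrobial chemokine, fell from 29.4 ± 2.88 to 11.2 ± 1.9 and 5.77 ± 0.327.

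Among targets, receptors and partners of the 10 proteins 11 of 20 were tested, and 2 were higher and 2 lower at 24 h, shares near the 12% and 17.7% of all tested genes (median -0.1 against -0.03). TGM2, a transglutaminase of the kind that crosslinks elafin to matrix, rose from 4.47 ± 0.537 to 179 ± 8.95 CPM at 24 h and 252 ± 12.5 at 72 h. ANXA2, a membrane partner of SLPI, rose from 1460 ± 24.9 to 4550 ± 201 CPM at 24 h. GRN, whose protein SLPI shields from elastase, was at 201 CPM in No Dox and 93.8 at 24 h. LGALS3, a lectin that binds MUC1, was not called at 24 h and was lower at 48 h, at 54.2 CPM against 115 in No Dox. The neutrophil proteases that SLPI and PI3 inhibit were nearly without counts, ELANE and PRTN3 being at 0 at 24, 48 and 72 h.

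Relatives of LCN2 and OLFM4 mostly had too few counts to be tested, while most relatives of AGR2 were tested. Of 18 lipocalin relatives of LCN2, 4 were tested. APOD and RBP4, carriers of lipids and retinol, were at 2.03 and 0.998 CPM in No Dox and at 0.0156 and 0.299 CPM at 24 h. Both passed the filter on low counts only through their No Dox libraries. Of 12 relatives of AGR2, 9 were tested and 2 were higher at 24 h (12% of all tested genes were), TXNDC5 from 108 to 219 CPM and PDIA4 from 134 to 295 CPM. The median log2 fold change of the 9 at 24 h was 0.72, against -0.03 over all tested genes. Of 9 olfactomedin relatives of OLFM4, 1 was tested, OLFML2A, at 0.139 CPM in No Dox and 1.64 at 72 h. OLFML2A passed the same filter only through Dox libraries, so its higher level there follows in part from the filter.

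Genes near the loci of the tested genes were also read. Within 100 kb of LCN2, 6 protein-coding genes were tested, of which 2 were lower and 1 higher at 24 h, beside 17.7% and 12% of all tested genes. Within 100 kb of MUC1, 14 were tested, of which 3 were lower at 24 h, a share near that of all tested genes. THBS3, 2.7 kb from MUC1 and named after its values were seen, was at 30.8 CPM in No Dox, 3.01 at 24 h and 8.83 at 72 h. Within 100 kb of SLPI, 2 genes were tested and neither was called at 24, 48 or 72 h. They are PI3, itself among the 10 genes, and SDC4 (log2 fold change -0.8 at 24 h). Near PI3 the tested genes were SLPI and STK4, and STK4 was not called. Near AGR2, 3 were tested and none was called, and OLFM4 had no protein-coding gene within 100 kb. Within 100 kb of SAA1, 5 were tested, and 3 of them, SAA2, SAA4 and SAA2-SAA4, were called lower at 24 h and higher at 72 h than at 24 h. Of all tested genes 5.09% were. These 3 are not separate observations, since SAA2 is among the 10 genes and SAA2-SAA4 overlaps SAA2. SAA4 and SAA2-SAA4 had only 0 and 3 counts at 24 h. HPS5 and GTF2H1 were called in neither comparison.

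The genes whose course was most like that of a tested gene were found by Pearson's r of log2 CPM over the 12 libraries, among 10757 protein-coding genes of at least 5 CPM in their highest group. The points share libraries and groups, so r is a description. For MUC1 the nearest gene was SAA2 (r = 0.994), followed by MNT (0.992) and SCNN1A (0.991). For SAA2 the nearest was PPL (0.996), at 357 CPM in No Dox, 41.3 at 24 h and 186 at 72 h. For LCN2 it was MYO18A (0.997), at 173, 56.4 and 85.6 CPM. SLPI was nearest to CTNNBIP1 (0.992), OLFM4 to IL1RL1 (0.998), AGR2 to METTL9 (0.968), and PI3 to RAP1GDS1 (0.941), the lowest of these values. OLFM4 and AGR2 were nearly without counts in Dox, so their r rests mainly on No Dox against Dox. The size of a change does not enter r, and METTL9 was at 125 CPM in No Dox and 98.2 at 24 h, a far smaller fall than that of AGR2.

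Measures of the libraries that moved with the groups stand beside these results. Mitochondrial transcripts took 5.16 ± 0.119% of counts in No Dox and 3.52 ± 0.248, 3.22 ± 0.12 and 3.23 ± 0.154% at 24, 48 and 72 h. The 8 fibroblast markers summed to 54.6 to 56.6 CPM in No Dox and 2.02 to 5.87 CPM in Dox, with COL1A2, COL3A1 and PDGFRA at 0 in every library. Most of this sum was DCN, at 50.1 CPM in No Dox and 1.11, 0.191 and 0.0626 CPM at 24, 48 and 72 h. At 24 h, 2 of the 4 tested markers were called lower and 1 higher, beside 17.7% and 12% of all tested genes. The calls of the 8 tested genes were the same without mitochondrial transcripts, and the part of the fibroblast markers was not tested.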

How the data were processed

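The 12 samples were sequenced as stranded, paired-end libraries of poly(A) RNA. Reads were aligned by the authors with STAR (GRCh38, GENCODE version 22), and RSEM was used to quantify genes. Tool versions and the strand option of RSEM were not given in the sources used here. The deposited tables hold expected counts, TPM, FPKM and effective lengths. The deposited expected counts were rounded for the tests, the deposited TPM values were used to compare levels between genes, and the deposited FPKM values were not used. RSEM splits reads that match more than 1 gene.

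GENCODE version 44 gave names by stable identifier to 56321 of 60483 rows and through transcripts to 386, and 3776 rows kept their identifier. Totals were 15382564 to 26570132 expected counts, and 3 counts over a group corresponded to 0.0519, 0.0515, 0.0513 and 0.0479 CPM in No Dox and at 24, 48 and 72 h. Genes were kept with filterByExpr (14822), scaled with TMM factors and fitted over all 12 libraries with the group as the factor (edgeR 4.0.16 and limma 3.58.1 in R 4.3.3). The biological coefficient of variation was 5.71%. SEs were derived from the quasi-likelihood F. The fit was tested on simulated data with known changes. Alternatives were DESeq2 1.42.0, effective lengths, other scaling factors and filters, glmTreat, no fold threshold, the groups compared alone, limma on log2(TPM + 0.5), a fit with the replicate as a block, and fits without each library in turn.

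The 10 genes and all gene lists were chosen with earlier results of these data known. From each list, up to 4 called genes of largest change with at least 5 CPM in the highest group are named, or, where no gene met this, up to 2 of the most abundant. The gene nearest in course to SAA1 is not reported here. Replicate numbers did not pair the samples: deviations of same-numbered libraries had correlations of -0.205 to 0.32 in 18 pairs, 3 of them over 0.1.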

Additional observations from a re-analysis of the deposited data

How the results depend on the processing

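All tested genes kept their direction wherever they were called, under every alternative run. Of the values recomputed for the 8 tested genes, 1512 kept their call, 4 gained it and 9 lost it; these are named beside SAA2, MUC1, LCN2 and AGR2 above. Without the fold threshold, 7 of the 10 genes were called at 72 h against No Dox in place of 4, and 5 between 48 and 72 h in place of 0. Over all genes, dropping the fold threshold gave 11142, 10646 and 10252 calls at 24, 48 and 72 h against No Dox in place of 4391, 3718 and 3333, 5414 at 48 against 24 h, 5742 at 72 against 48 h, 8992 at 72 against 24 h, and 12786 in the time course (669, 480, 1819 and 5319 with it). A test of the threshold itself (glmTreat) gave 2464 at 48 h and 2155 at 72 h against No Dox, then 177, 26 and 655 for the later steps in the same order. Limma on log2(TPM + 0.5) gave 348, 195 and 1083 for those steps, and 342, 185 and 1130 without a filter. These counts differ by construction in the threshold or the values tested. The replicate block changed none of the calls of these genes, with 6 of them called at 24 h and 4380 genes in all. With other scaling factors the median log2 fold change of all genes at the 3 times against No Dox lay between -0.08 and -0.02, against -0.03 to -0.01 with TMM. Depth limited PIGR, WFDC2, AGR2 and, in Dox, OLFM4.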
